A study of Mus musculus with 6 samples.

Results

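Major histocompatibility complex (MHC) class I presentation genes and interferon-stimulated genes were examined in the brain without its cerebellum of Gb5-deficient mice (Gb5ko) and wild-type mice (Gb5wt). Members were chosen by symbol: every array probe set annotated to exactly 1 gene, where that gene is among 32 listed ones. The rule found 61 probe sets of 31 genes among 45037 probe sets tested and 18193 genes with such a probe set. Class I presentation was read by 25 probe sets of 8 genes and the interferon-stimulated genes by 36 probe sets of 23 genes. The listed gene without a value is Isg15, a ubiquitin-like modifier, whose probe set is shared with Gm9706; 3 further probe sets shared between H2-K1 or H2-D1 and other genes were left out for the same reason.

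There were 3 Gb5ko arrays (replicates 1, 2 and 3) and 3 Gb5wt arrays (replicates 4, 5 and 6), 1 sample of total RNA each. Gb5ko mice lack Gb5, the divergent G protein beta subunit encoded by Gnb5, and no allele or Cre driver is named in the sources used here. No treatment is named for either group, and the animals came from littermate cohorts of matched age and sex, per the labels; the sources used here give no age, no strain and no sex for any 1 animal. Sex-linked transcripts differed between arrays within each group, as given further on. The p-values measure the spread between these arrays. Gnb5 read 3.67, 3.00 and 3.56 on the log2 scale in Gb5ko, against 8.79, 8.98 and 9.30 in Gb5wt, a difference of -5.62 ± 0.193 (SE; limma adjusted p = 4.48e-06).

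Every nucleated cell can show fragments of its own proteins on MHC class I. The immunoproteasome subunits Psmb8 and Psmb9 cut proteins into peptides, Tap1 and Tap2 together carry the peptides into the endoplasmic reticulum, tapasin (Tapbp) helps to load them, and the heavy chains H2-K1 and H2-D1 display them together with beta-2 microglobulin (B2m). Interferons raise these genes and a wider set of antiviral genes: type I interferons act through Stat2 and Irf9, and interferon gamma acts largely through Irf1. In the healthy brain, microglia and endothelial cells carry most class I protein, while neurons usually hold little.

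The promoters are shown first because the interferon-stimulated and class I genes differ in the letters they carry. Promoter windows of 300 bases, from 250 before to 50 after a gene start, came from RefSeq for mouse assembly GRCm38.p6, and were listed for 7 of 8 class I genes and 19 interferon-stimulated genes. Windows for Tap2, Mx1, Mx2, Rtp4, Parp14 and Usp18 were not used here. A pair of GAAA repeats, searched on both strands as GAAA, any 2 bases and GAAA, stood in 3.44% of all 32851 promoter windows. By gene, it stood in 3.99% of all 27025 genes, 12 of 19 interferon-stimulated genes and 1 of 7 class I genes, B2m. The 19 genes include Isg15, which has no value here. In the sequences that follow, which are the B2m window and those of 3 antiviral genes discussed with their values further on, capitals mark every match.
B2m, chr2:122147533-122147572, plus strand: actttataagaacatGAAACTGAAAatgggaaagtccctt
Ifit1, chr19:34640770-34640828, plus strand: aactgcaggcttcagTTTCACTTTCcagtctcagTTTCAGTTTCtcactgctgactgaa
Rsad2, chr12:26456548-26456587, minus strand: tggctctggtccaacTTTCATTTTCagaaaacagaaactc
Bst2, chr8:71537572-71537617, minus strand: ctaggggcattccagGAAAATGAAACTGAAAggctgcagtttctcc
A match is a description of the letters, not evidence that a factor binds there. Where a run of repeats holds more than 1 match, the matches can overlap.

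The heavy chain genes carried other letters. A form of the NF-kappaB motif, searched on both strands as GGG, any 2 bases and TTCCC, stood in 1.75% of all promoter windows. By gene, it stood in 2.01% of all genes, in H2-K1 and H2-D1 among the class I genes, and in 0 of 19 interferon-stimulated genes. The shorter repeat, GAA, any 2 bases and GAAA, stood in 7.52% of all windows and 8.68% of all genes. Among the members it stood in the same pair of class I genes and in 6 of 19 interferon-stimulated genes. A stretch of repeats can match both repeat motifs in overlapping letters. These windows are shown because H2-K1 and H2-D1 each carry both motifs. Separately from their promoters, their probe sets cannot be fully told apart, for a reason given further on. Capitals mark the NF-kappaB motif first and the shorter repeat, in its reverse complement, after it.
H2-K1, chr17:34000414-34000473, minus strand: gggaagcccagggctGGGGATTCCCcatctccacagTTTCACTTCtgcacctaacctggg
H2-D1, chr17:35262908-35262967, plus strand: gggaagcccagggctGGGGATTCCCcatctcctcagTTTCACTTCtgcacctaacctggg
The printed windows match at 59 of 60 positions.

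Tap1 and Psmb9 lie head to head on chromosome 17, with 225 bases between their RefSeq starts, so that their promoter windows share 275 bases. The stretch is shown because the values of this pair differed, as given further on. It holds 12 CG pairs, marked in capitals, and 0 matches to the 3 motifs above.
Between Psmb9 and Tap1, chr17:34187331-34187555, plus strand: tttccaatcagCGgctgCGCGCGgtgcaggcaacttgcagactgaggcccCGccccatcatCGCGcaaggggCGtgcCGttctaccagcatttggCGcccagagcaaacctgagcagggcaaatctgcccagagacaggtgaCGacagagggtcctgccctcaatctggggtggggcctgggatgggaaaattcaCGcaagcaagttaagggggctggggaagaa

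Of the 61 member probe sets, 0 passed the test (limma, Benjamini-Hochberg adjusted p under 0.05), against 0.0266% of all probe sets called. By limma at an unadjusted p under 0.05, 12 of the 61 passed, against 14.4% of all probe sets; 10 of them were higher and 2 lower in Gb5ko. The smallest adjusted p among the members was 0.187. Missing the threshold with 3 arrays a group does not show that the members were alike between the groups, so what follows gives sizes and directions with their errors.

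More class I than interferon-stimulated probe sets were higher in Gb5ko. The contrast between the lists was not tested, since the members were chosen with results known. At an unadjusted p under 0.05 (limma), 8 of 25 class I probe sets (32%) were higher and 0 lower, beside 8.09% of all probe sets higher and 6.33% lower. Most of these 8 read H2-D1 or H2-K1, which cannot be fully separated. They were 4 of 11 probe sets of this pair with the suffix x_at, explained further on, and 1 of 2 others. Probe sets of 1 gene are repeated readings rather than separate genes. Among the interferon-stimulated probe sets 2 of 36 were higher and 2 lower. The Gb5ko and Gb5wt arrays did not overlap, with Gb5ko higher, at 7 class I and 2 interferon-stimulated probe sets, against 12.5% of all probe sets, and with Gb5wt higher at 0 class I and 3 interferon-stimulated ones, against 8.95%. The difference was positive at 19 of 25 class I and 21 of 36 interferon-stimulated probe sets, against 55.5% of all probe sets. The class I count was 5 of 25 without Gb5wt replicate 4, where 5.60% of all probe sets were higher, and also 5 without Gb5wt replicate 6, where 6.65% were.

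Each gene was next read through its brightest probe set, the 1 with the highest mean over the 6 arrays. The median difference was 0.34 over the 8 class I genes, 0.05 over the 23 interferon-stimulated genes and 0.05 over all 18193 genes. None of the 31 genes passed the adjusted threshold (limma), against 0.022% of all genes. At an unadjusted p under 0.05 (limma) 4 of 8 class I genes and 2 of 23 interferon-stimulated genes were higher, against 9.89% of all genes, and none was lower, against 5.68%. Groups without overlap, with Gb5ko higher, were found in 3 of 8 class I and 2 of 23 interferon-stimulated genes, against 16.1% of all genes, and with Gb5wt higher in 0 and 2, against 9.01%. The difference was positive in 6 of 8 class I and 14 of 23 interferon-stimulated genes, against 59.9% of all genes. Read through the median of each gene's probe sets instead, the class I median was 0.12, so the size of the class I lean depends on which probe sets are read.

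**Figure D1:**
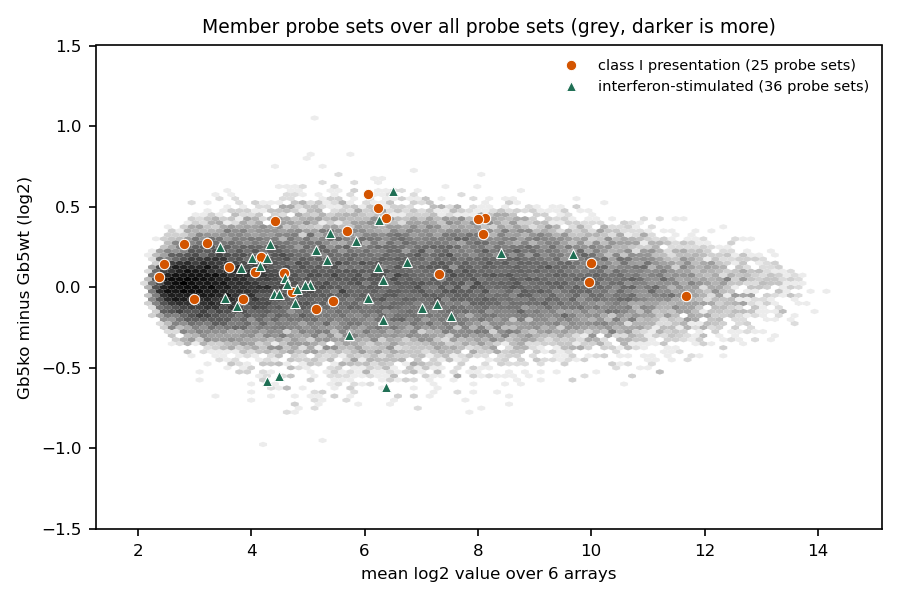
Difference between Gb5ko and Gb5wt (log2, vertical axis) against mean log2 value over the 6 arrays (horizontal axis), for 25 class I probe sets (circles) and 36 interferon-stimulated probe sets (triangles) over all probe sets in grey, of which those differing by more than 1.5 are not drawn. Class I circles above a mean of 6 lie mostly over 0, with a median of 0.38, while the triangles spread to both sides.

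Split at a mean of 6, class I probe sets above it had a higher median difference than those below, though the 3 brightest, of B2m and Tapbp, lay between -0.06 and 0.15. Of 10 class I probe sets with a mean over 6, 9 were positive and 5 were higher at an unadjusted p under 0.05 (limma), with a median of 0.38; of all probe sets over 6, 10.2% were higher. The other 15 class I probe sets had a median of 0.09 and 3 were higher, beside 6.17% of all probe sets at or under 6. For the interferon-stimulated genes the medians were 0.05 over the 13 brighter probe sets and 0.02 over the 23 dimmer ones.

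H2-D1, a classical class I heavy chain, read 8.49, 8.16 and 8.37 on the log2 scale in Gb5ko, against 7.65, 8.06 and 8.01 in Gb5wt. All 3 Gb5ko arrays were above all 3 Gb5wt arrays, with Gb5wt replicate 4 the lowest. The difference was 0.43 ± 0.14 (SE), 1.35-fold, with a 95% interval of 0.12 to 0.75 (limma adjusted p = 0.258). The third probe set of H2-D1 by brightness read 6.58, 6.19 and 6.25 in Gb5ko, against 5.77, 5.75 and 5.78 in Gb5wt. There the Gb5wt arrays were close together and the difference was 0.58 ± 0.122 (SE), the largest of any class I probe set, still short of the threshold (limma adjusted p = 0.187).

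H2-K1, the other classical heavy chain measured, read 8.31, 7.99 and 8.46 in Gb5ko, against 7.66, 8.12 and 7.98 in Gb5wt. The groups overlapped, since Gb5ko replicate 2 was below Gb5wt replicate 5. The difference was 0.33 ± 0.158 (SE; limma adjusted p = 0.370). The second probe set of H2-K1 by brightness overlapped and differed by 0.08 ± 0.117 (SE; limma adjusted p = 0.785). The third did not overlap, with 6.78, 6.45 and 6.23 in Gb5ko, against 5.87, 5.92 and 6.19 in Gb5wt, a difference of 0.49 ± 0.156 (SE; limma adjusted p = 0.254). The array's suffix x_at marks probe sets whose probes can also match other transcripts, and 11 of the 13 H2-D1 and H2-K1 probe sets carry it, so values of the heavy chains are uncertain as to which gene they read. The third H2-D1 probe set by brightness does not carry this suffix, though which transcripts it reads was not tested. Heavy chain genes also vary in sequence between mouse strains.

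B2m, the light chain of every class I molecule, read 11.57, 11.72 and 11.65 in Gb5ko, against 11.62, 11.82 and 11.67 in Gb5wt. The groups overlapped and differed by -0.06 ± 0.104 (SE), with a 95% interval of -0.29 to 0.18 (limma adjusted p = 0.839). The second B2m probe set differed by 0.04. B2m did not share the lean of the heavy chains in either probe set.

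Of the peptide transporter, Tap1 read 6.79, 6.47 and 6.53 in Gb5ko, against 6.24, 6.28 and 5.99 in Gb5wt. All Gb5ko arrays were above all Gb5wt arrays, and the difference was 0.43 ± 0.127 (SE), 1.35-fold (limma adjusted p = 0.241). Tap2, the partner of Tap1, read 4.42, 4.70 and 4.78 in Gb5ko, against 4.22, 4.50 and 3.95 in Gb5wt. Gb5ko replicate 1 was below Gb5wt replicate 5, and the difference was 0.41 ± 0.157 (SE; limma adjusted p = 0.292). Tapbp, tapasin, read 10.21, 10.02 and 9.97 in Gb5ko, against 9.90, 9.85 and 10.01 in Gb5wt, overlapping groups with a difference of 0.15 ± 0.108 (SE; limma adjusted p = 0.539).

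The immunoproteasome subunits had differences of opposite sign, which were not tested against each other and whose 95% intervals overlap. Psmb8 read 5.96, 5.87 and 5.75 in Gb5ko, against 5.38, 5.70 and 5.45 in Gb5wt, without overlap, and differed by 0.35 ± 0.119 (SE; limma adjusted p = 0.268). Psmb9 read 5.34, 5.40 and 5.47 in Gb5ko, against 5.43, 5.57 and 5.47 in Gb5wt, overlapping groups with a difference of -0.08 ± 0.0989 (SE; limma adjusted p = 0.726). Psmb9 and Tap1, whose starts face each other across the stretch printed above, thus had differences of opposite sign. Tap1 minus Psmb9 was 1.46, 1.07 and 1.06 in Gb5ko, against 0.81, 0.71 and 0.53 in Gb5wt; the groups did not overlap, and their means differed by 0.52. The pair was chosen after its values were seen, so no test is given, and the opposite sign holds for the brightest Tap1 probe set: the second brightest differed by -0.14, the same sign as Psmb9.

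**Figure D2:**
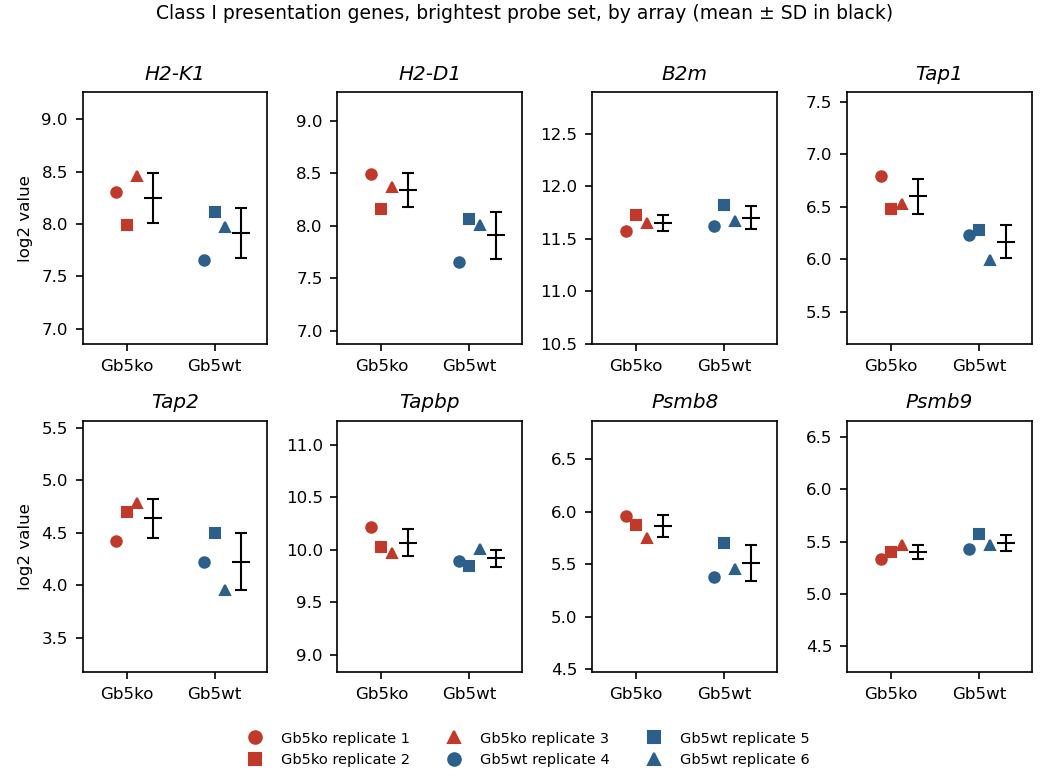
Log2 value of the brightest probe set (vertical axis) of the 8 class I genes, with 1 point per array, Gb5ko left of Gb5wt, and mean ± SD (n = 3) in black. H2-D1, Tap1 and Psmb8 show no overlap between the groups, H2-K1, Tap2 and Tapbp are higher on average in Gb5ko with overlap, and B2m and Psmb9 are not higher. Each panel has its own vertical range of the same height.

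The class I genes other than B2m, which is on chromosome 2, lie on chromosome 17. By order of protein-coding genes there, Psmb9, Tap1, Psmb8 and Tap2 are consecutive, at places 504, 505, 506 and 507; Tapbp is at place 486, H2-K1 at 493 and H2-D1 at 575. Read through the brightest probe sets, Psmb9 alone among the consecutive 4 had a negative difference. The second brightest Tap1 probe set was negative too, at -0.14.

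Probe sets of 1 gene did not always give the same difference. Of 6 class I genes with 2 or more probe sets, 2 (H2-K1 and Psmb8) had differences of 1 sign throughout; of 9 such interferon-stimulated genes, 5 did; of all 9010 such genes, 44.5% did. The spread between a gene's highest and lowest difference had a median of 0.32 in class I genes, 0.19 in interferon-stimulated genes and 0.24 in all genes. It was over 0.5 in 2 of 6 class I genes and 2 of 9 interferon-stimulated genes, against 13.2% of all genes. The 95% intervals of a gene's probe sets had a value in common in every one of these 15 genes other than H2-D1 and Tap1.

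The 9 H2-D1 probe sets differed between the groups by -0.07 to 0.58, 7 of them positive. The 3 brightest were all at or over 0.42, and the other 6, each with a mean under 5, lay between -0.07 and 0.19. The 4 H2-K1 probe sets were all positive, from 0.08 to 0.49. The 4 Tap1 probe sets ran from -0.14 to 0.43: the second brightest read 4.95, 5.02 and 5.23 in Gb5ko, against 5.32, 5.22 and 5.08 in Gb5wt, and the remaining 2 had means under 3 on the log2 scale. Of the 4 Tap1 probe sets, 1, the brightest, had a 95% interval that lay above 0.

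**Figure D3:**
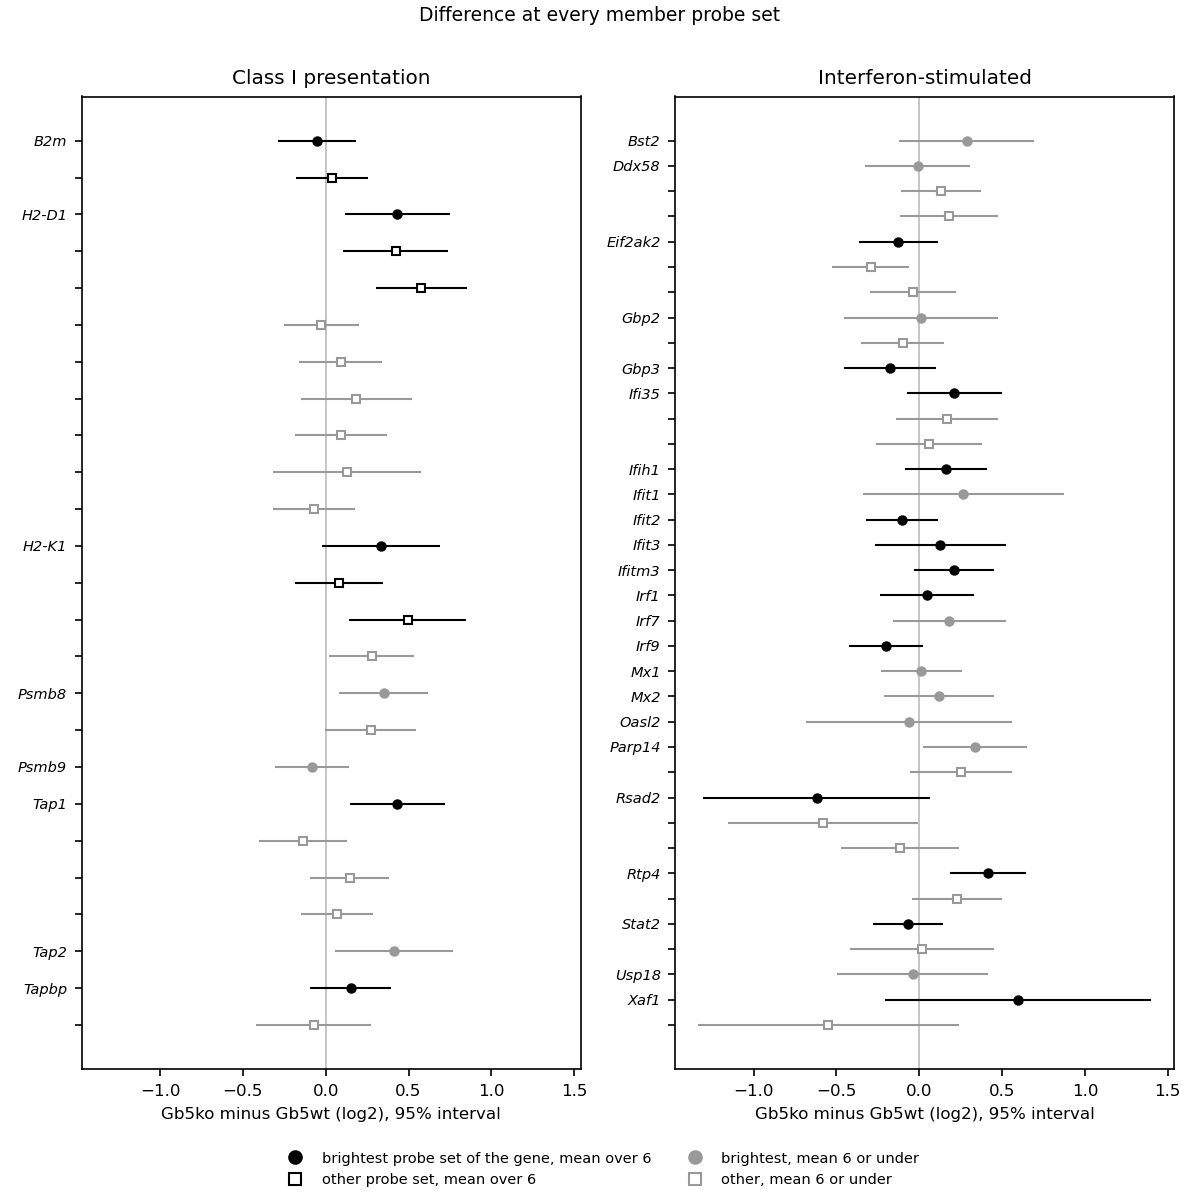
Difference between Gb5ko and Gb5wt (log2, horizontal axis) with its 95% interval for every member probe set, class I on the left and interferon-stimulated on the right. Filled points are the brightest probe set of each named gene, open points below it are its other probe sets, and grey marks a mean of 6 or under. H2-D1 and Tap1 are the genes whose intervals do not all share a value, and Xaf1 has points on opposite sides of 0.

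Brightness was described by the percentile of a probe set's mean among all probe sets on the arrays, which depends on its probes as well as on the RNA and gives no ratio between genes. The class I genes had a median percentile of 64.4, from 34.3 for Tap2 to 96.9 for B2m, with Tapbp at 88.6, H2-D1 at 73.5 and H2-K1 at 73.1. The interferon-stimulated genes had a median percentile of 54.4, from 21.2 for Oasl2 to 86.5 for Ifitm3. The median over all genes was 66.1. Of the class I genes 5 of 8 had a mean over 6, and of the interferon-stimulated genes 13 of 23.

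The antiviral effectors, the largest group of interferon-stimulated members, had differences from -0.62 to 0.60 over 16 genes, 11 positive, with a median of 0.12. Rtp4, a chaperone-like transmembrane protein induced by type I interferon, read 6.43, 6.41 and 6.55 in Gb5ko, against 6.02, 6.15 and 5.97 in Gb5wt. All Gb5ko arrays were above all Gb5wt arrays, with a difference of 0.42 ± 0.102 (SE), 1.33-fold, and an adjusted p of 0.203 by limma, the smallest of any interferon-stimulated member. Its second probe set was also positive, at 0.23. Parp14, an ADP-ribosyltransferase, read 5.50, 5.60 and 5.60 in Gb5ko, against 5.06, 5.10 and 5.54 in Gb5wt. Gb5wt replicate 6 reached into the Gb5ko range, and the difference was 0.33 ± 0.139 (SE; limma adjusted p = 0.324), with 0.25 in its second probe set.

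Rsad2 (viperin), an antiviral enzyme that makes a chain-terminating nucleotide, went the other way. It read 5.23, 6.31 and 6.66 in Gb5ko, against 6.72, 6.54 and 6.80 in Gb5wt. The low value of Gb5ko replicate 1 gave most of the difference of -0.62 ± 0.303 (SE; limma adjusted p = 0.382): it was -0.20 without that array. The second Rsad2 probe set read 3.53, 4.18 and 4.27 in Gb5ko, against 4.03, 4.80 and 4.88 in Gb5wt, a difference of -0.58 (limma adjusted p = 0.341), and the third differed by -0.12. All 3 were negative, and all 3 overlapped between the groups.

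Eif2ak2 (PKR), the kinase that halts translation on double-stranded RNA, was negative in all of its 3 probe sets. The second brightest read 5.65, 5.46 and 5.61 in Gb5ko, against 5.82, 5.84 and 5.94 in Gb5wt, without overlap, and differed by -0.29 ± 0.102 (SE; limma adjusted p = 0.272). The brightest probe set differed by -0.13 and the dimmest by -0.04.

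Xaf1, a pro-apoptotic interferon target, had the widest disagreement. The brighter probe set read 7.02, 6.01 and 7.36 in Gb5ko, against 6.85, 5.83 and 5.93 in Gb5wt, a difference of 0.60 ± 0.357 (SE; limma adjusted p = 0.465). The dimmer one read 3.71, 4.93 and 4.03 in Gb5ko, against 4.09, 5.24 and 4.99 in Gb5wt, a difference of -0.55 ± 0.348 (SE; limma adjusted p = 0.488). Arrays that were high in 1 probe set were low in the other, in both groups: Gb5ko replicate 2 was the lowest Gb5ko array in the first and the highest in the second, and Gb5wt replicate 4 was the highest Gb5wt array in the first and the lowest in the second. No direction for Xaf1 can be given from these arrays.

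The brightest antiviral members moved little. Ifitm3, a membrane protein that blocks virus entry, read 9.95, 9.66 and 9.75 in Gb5ko, against 9.57, 9.56 and 9.61 in Gb5wt, without overlap, and differed by 0.21 ± 0.107 (SE; limma adjusted p = 0.401). Ifi35 read 8.68, 8.27 and 8.61 in Gb5ko, against 8.37, 8.29 and 8.25 in Gb5wt, with overlap, and differed by 0.21 ± 0.127 (SE; limma adjusted p = 0.465). Gbp3, a guanylate-binding GTPase, read 7.35, 7.30 and 7.63 in Gb5ko, against 7.69, 7.66 and 7.47 in Gb5wt, with overlap, and differed by -0.18 ± 0.123 (SE; limma adjusted p = 0.530). Ifit2, which binds viral RNA, read 7.20, 7.29 and 7.19 in Gb5ko, against 7.29, 7.40 and 7.31 in Gb5wt, and differed by -0.11 ± 0.0962 (SE; limma adjusted p = 0.636). Ifit2 arrays of Gb5ko were all at or below the lowest Gb5wt array, by a margin smaller than the standard error.

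**Figure D4:**
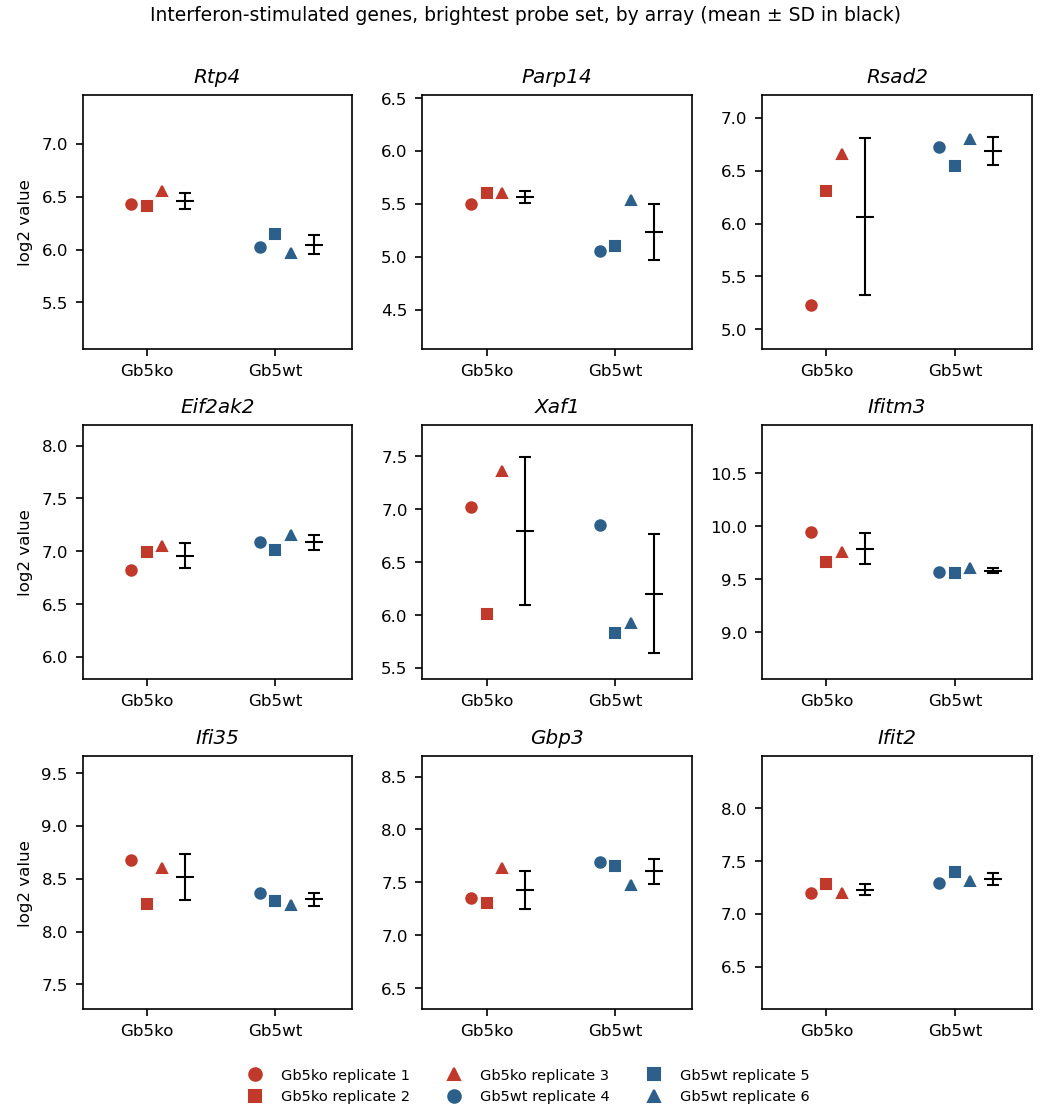
Log2 value of the brightest probe set (vertical axis) of 9 interferon-stimulated genes, with 1 point per array, Gb5ko left of Gb5wt, and mean ± SD (n = 3) in black. Rtp4 and Ifitm3 are higher in Gb5ko without overlap, Rsad2 has 1 low Gb5ko array at 5.23, and Xaf1 spreads widely in both groups. Each panel has its own vertical range of the same height.

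The other antiviral effectors had limma adjusted p-values of 0.489 or more. Their brightest probe sets differed by 0.29 for Bst2 (tetherin, which holds budding virus at the cell surface), 0.27 for Ifit1 and 0.13 for Ifit3 (both of the RNA-binding IFIT family), and 0.12 for Mx2 and 0.01 for Mx1 (dynamin-like GTPases). Gbp2, another guanylate-binding protein, differed by 0.01 and Oasl2, of the oligoadenylate synthetase family, by -0.06. Ifit1 was among the most variable, with 5.04, 3.93 and 4.43 in Gb5ko, against 3.81, 4.29 and 4.49 in Gb5wt.

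The transcription factors that carry the interferon signal did not lean one way. Irf9, the DNA-binding part of the type I interferon complex, differed by -0.20 ± 0.0996 (SE; limma adjusted p = 0.386), with 6.15, 6.34 and 6.21 in Gb5ko, against 6.42, 6.40 and 6.48 in Gb5wt, and no overlap. Stat2, its partner, differed by -0.07, Irf1 by 0.05 and Irf7, the amplifier of type I interferon output, by 0.18. The RNA sensors Ifih1 (MDA5) and Ddx58 (RIG-I) differed by 0.16 and -0.01, and Usp18, the protease that removes Isg15 from proteins, by -0.04.

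Averaged over genes and set relative to the 6-array mean, class I read 0.16, 0.06 and 0.15 (log2) in Gb5ko, against -0.22, 0.01 and -0.16 in Gb5wt. All Gb5ko arrays were above all Gb5wt arrays, with the nearest pair Gb5ko replicate 2 and Gb5wt replicate 5. The mean over all 18193 genes separated the groups too, by less, with 0.004 to 0.05 in Gb5ko and -0.02 in each Gb5wt array. The interferon-stimulated genes read 0.00, -0.07 and 0.17 in Gb5ko, against -0.11, 0.02 and -0.02 in Gb5wt, and the groups overlapped. Class I minus interferon-stimulated genes was 0.16, 0.14 and -0.03 in Gb5ko, against -0.11, -0.01 and -0.14 in Gb5wt, which overlapped because of Gb5ko replicate 3.

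Gb5wt replicate 4 held the lowest value of the 6 arrays in 3 of 8 class I genes and 8 of 23 interferon-stimulated genes, against 26.1% of all genes. Without that array the class I median was 0.24. Gb5ko replicate 1 and Gb5wt replicate 4 were farthest apart on the first principal component (40.3% of the variance), at -49.8 and 32.3, and without both the class I median was 0.20. In Gb5ko replicate 2 and Gb5wt replicate 4, the Y-linked Eif2s3y was at 11.3 in each, and Gb5ko replicate 3 and Gb5wt replicate 5 read 6.97 and 6.05, between those and the lowest arrays (2.96 in Gb5ko and 4.05 in Gb5wt). Y-linked Kdm5d read 6.79 in Gb5ko replicate 2 and 7.21 in Gb5wt replicate 4, against 2.59 to 3.08 in the other arrays. X-linked Xist read 8.31 and 4.96 in the same 2 arrays, against 10.6 to 10.8 in the others. Arrays of a group were thus not alike in sex-linked transcripts, although the labels give matched sex. Pituitary Gh was at 10.6 in Gb5ko replicate 3, against 4.20 to 6.21 in Gb5wt arrays. The part of these array differences in the members' values was not tested beyond the arrays left out.

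Genes of the same pathways outside the member list gave a mixed picture, and 0 of them passed the adjusted threshold (limma). Of the wider class I pathway, 12 of 16 listed genes were measured, of which 1 passed an unadjusted p under 0.05 (limma) as higher and 1 as lower, against 9.89% and 5.68% of all genes, and a median of 0.00. Psmb10, the third immunoproteasome subunit, differed by 0.34 ± 0.131 (SE; limma adjusted p = 0.300), the proteasome activator Psme1 by 0.36, the RFX complex subunit Rfxank, which acts at MHC promoters, by 0.18 and the chaperone calnexin (Canx) by -0.27. The constitutive catalytic subunits Psmb5, Psmb6 and Psmb7 differed by 0.28, 0.21 and -0.14, with limma adjusted p-values of 0.436 or more.

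Of the class II presentation genes, 7 of 8 were measured, with a median of 0.12. At an unadjusted p under 0.05 (limma) 2 were higher and 0 lower, against 9.89% and 5.68% of all genes. H2-DMa, which loads peptides on class II, read 7.82, 7.70 and 7.67 in Gb5ko, against 7.41, 7.30 and 7.40 in Gb5wt, a difference of 0.36 ± 0.0986 (SE; limma adjusted p = 0.222). The invariant chain Cd74 differed by 0.45, the class II regulator Ciita by 0.17 and the class II chain H2-Aa by -0.29.

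Interferon ligands were measured in 5 of 10 genes, 4 of them with means under 4, and Ifnb1 averaged 2.82 in Gb5ko and 2.87 in Gb5wt. Ifna1 differed by 0.52 ± 0.154 (SE; limma adjusted p = 0.243) through an x_at probe set, and the interferon alpha genes are near-identical to one another, so the gene it reads is uncertain. Of 22 listed receptors and signalling genes 19 were measured, with a median of 0.00. At an unadjusted p under 0.05 (limma) 3 were higher and 0 lower, against 9.89% and 5.68% of all genes. The DNA-sensing adaptor Sting1 differed by 0.36, the kinase Ikbke by 0.43, the interferon gamma receptor chain Ifngr2 by 0.31 and the kinase Tbk1 by -0.22.

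The 45 measured of 50 other interferon-stimulated genes had a median of -0.01. At an unadjusted p under 0.05 (limma) 4 were higher and 4 lower, against 9.89% and 5.68% of all genes. Ifi27l2a differed by 0.43 ± 0.115 (SE; limma adjusted p = 0.219) and the secreted lectin-binding protein Lgals3bp by 0.34. The exonuclease Isg20 differed by -0.48 ± 0.13 (SE; limma adjusted p = 0.222), and Cmpk2, the neighbour of Rsad2 in the genome and a nucleotide kinase, by -0.29. These genes outside the member list thus centred near 0 as well.

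Microglia, the resident macrophages of the brain and a source of class I and interferon-stimulated transcripts, had marker values that were higher on average in Gb5ko, none past the adjusted threshold. Of 16 measured of 17 listed markers, 14 were positive, against 59.9% of all genes. At an unadjusted p under 0.05 (limma) 5 were higher, against 9.89% of all genes. Aif1 differed by 0.35 ± 0.0978 (SE; limma adjusted p = 0.225), Csf1r by 0.30, Cd68 by 0.33 and Cx3cr1 by 0.35, and P2ry12 by -0.20. The microglial list read 0.08, 0.04 and 0.12 relative to the 6-array mean in Gb5ko, against -0.10, -0.08 and -0.05 in Gb5wt, without overlap. Its summed level on the linear scale ran from 14917 to 15747 in Gb5ko and from 13330 to 13641 in Gb5wt. Their part in the class I values was not tested. In whole tissue, a change in the number of cells of a type (fewer or more) and a change in RNA per cell (less or more) cannot be told apart.

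Markers of blood cells were dim. Of 10 measured T and B cell markers 7 were positive, against 59.9% of all genes. At an unadjusted p under 0.05 (limma) 1 of them (Cd79b, 0.58) was higher, against 9.89% of all genes. Their summed linear level ran from 228 to 319 in Gb5ko and from 238 to 277 in Gb5wt. The T cell receptor component Cd3e averaged 3.24 in Gb5ko and 3.36 in Gb5wt. Of 7 measured granulocyte and monocyte markers 6 were positive, against 59.9% of all genes. At an unadjusted p under 0.05 (limma) 2 were higher and 1 lower, against 9.89% and 5.68% of all genes. S100a9 differed by 0.91 ± 0.268 (SE; limma adjusted p = 0.240), and Ccr2, the lower one, by -0.30. The summed level of this list ran from 265 to 343 in Gb5ko and from 157 to 292 in Gb5wt. Endothelial markers, summed from 7300 to 7723 in Gb5ko and from 7540 to 8485 in Gb5wt, had a list difference of -0.14. Some lists of other cell types averaged lower in Gb5ko, with no marker past the adjusted threshold (limma): all 6 meningeal fibroblast markers were negative, with a list difference of -0.29 and no overlap, as were all 3 red cell markers (-0.43, no overlap) and all 7 oligodendrocyte markers (-0.31, with overlap). For comparison, 59.9% of all genes had a positive difference. Of 9 neuron markers, which were among the brightest on the arrays, 5 were positive, and the list difference was 0.005. Of 6 cerebellar markers 4 were positive and 2 negative. The dimmest of them, the granule cell marker Gabra6, averaged 3.48 in Gb5ko and 3.18 in Gb5wt. Brighter ones went both ways: Cbln1 averaged 11.0 in Gb5ko and 10.7 in Gb5wt, and Zic1 averaged 10.2 in Gb5ko and 10.5 in Gb5wt. The part of these lists in the members' values was not tested.

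**Figure D5:**
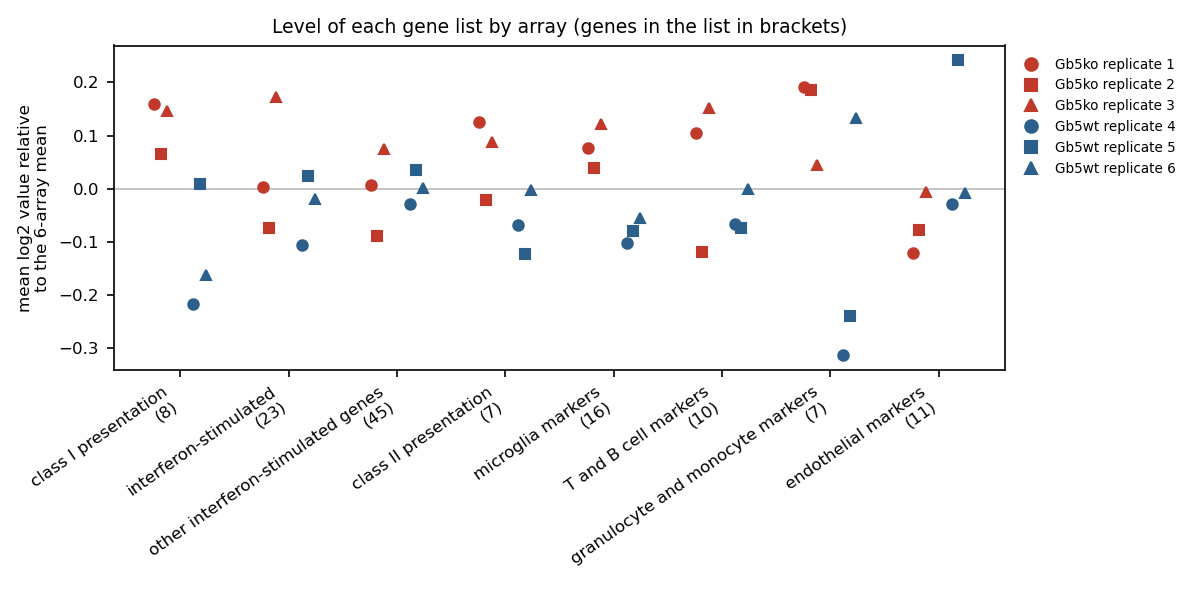
Mean log2 value of each gene list relative to its 6-array mean (vertical axis), with 1 point per array, Gb5ko left of Gb5wt, for the member lists, related pathways and cell markers, with the number of genes in brackets. Class I and microglia lists show all Gb5ko arrays above all Gb5wt arrays, at 0.06 to 0.16 in Gb5ko against -0.22 to 0.01 in Gb5wt for class I, and the interferon-stimulated lists overlap. Lists of interferon ligands and of receptors and signalling genes, and the mean of all genes, which are not drawn, also showed no overlap.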

How the data were processed

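Affymetrix arrays measured total RNA of brain without cerebellum in 6 samples, 3 Gb5ko and 3 Gb5wt, grouped by the genotype in their titles. The deposited values are log2 expression values per probe set, and per the submitters' processing notes the authors used RMA and Partek (versions not given in the sources used here). RMA corrects background, equalizes array distributions and summarizes probes, so that dim probe sets keep low positive values. The deposited log2 values ran from 1.91 to 14.4 and were not normalized again. No scanner file or detection call was used.

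After 64 control probe sets were left out, 45037 were fitted with limma 3.58.1 (lmFit, eBayes; R 4.3.3) without a filter on dim signal, two-sided, with Benjamini-Hochberg adjustment over all of them and a threshold of 0.05. The fit was tested on simulated data, and changes as small as most of those reported here can be missed with 3 arrays a group. Differences are Gb5ko minus Gb5wt, given with the fit's standard error. The number of arrays limits precision: the median standard error of a member's difference was 0.125. Genes outside the members were read through their brightest 1-gene probe set. Symbols came from the platform annotation, and RefSeq (GRCm38.p6) gave promoters and gene order.

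The members, lists and tests were chosen with earlier results of these data known. Every member is named. Values per array are given for the brightest probe set of each class I gene, for interferon-stimulated members with an unadjusted p under 0.05 in any probe set, for the 4 brightest of them, and for genes whose probe sets spread by over 0.5. A few further per-array values (the heavy chain probe sets beside the brightest, Ifit1, Irf9 and H2-DMa) were chosen after they were seen. Up to 4 genes a list with the smallest p are named from other pathways. P2ry12, Ifnb1 and markers that define a tissue or cell type were added. Alternatives covered 2 normalizations, filters on dim signal, trend and robust eBayes, array weights, Eif2s3y as a covariate, thresholds, readings of a gene, and arrays left out. Figures were drawn with matplotlib 3.10.9.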

Additional observations from a re-analysis of the deposited data

How the results depend on the processing

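No member probe set passed an adjusted p under 0.05 (limma) under any alternative run: all 909 alternative values stayed uncalled, 65 with a changed sign, and the lowest adjusted p was 0.125. At an unadjusted p under 0.05 (limma), 12 of 61 passed, against 14.4% of all probe sets. All probe sets called numbered 12, and 20 with a mean over 5, 23 with trend and robust eBayes, 27 with array weights, 4 with 1 probe set per gene, 479 where 1.5-fold and an unadjusted p under 0.05 were asked for, 44 at an adjusted threshold of 0.1; leaving out 1 array gave 9 to 12. Class I probe sets higher at an unadjusted p under 0.05 (limma) numbered 8 of 25 (8.09% of all probe sets), and 5 of 10 with a mean over 6 (11.7%). Leaving out 1 array gave 5 to 10 of 25. Interferon-stimulated ones numbered 2 of 36 higher, 1 of 13 with a mean over 6 and 1 of 36 with trend and robust eBayes. Leaving out 1 array gave 1 to 4 of 36. Lower ones numbered 2 of 36, and 1 with a mean over 5, 0 of 13 with a mean over 6 and 1 of 36 with Eif2s3y as a covariate. Leaving out 1 array gave 0 to 4 of 36. The class I median of 0.34 was 0.12 over the median of each gene's probe sets, and 0.24 to 0.44 without 1 array. The class I minus interferon-stimulated gap of 0.30 was 0.069 over the median of each gene's probe sets, and 0.23 to 0.31 without 1 array. The interferon-stimulated median of 0.05 was -0.002 to 0.13 without 1 array. Pairs of arrays were left out as a choice made after seeing the data. Without the pair of highest Gh (Gb5ko 3 and Gb5wt 6), 4 class I, 1 interferon-stimulated and 6.27% of all probe sets were higher. Without the pair farthest out on the first component (Gb5ko 1 and Gb5wt 4), 4 class I and 4.95% of all probe sets were higher, the class I median was 0.20 and the gap 0.17. Without the pair of highest Eif2s3y (Gb5ko 2 and Gb5wt 4), 5 interferon-stimulated and 5.74% of all probe sets were higher. Such settings also change the number of arrays or of probe sets tested, and the part of this in the counts was not tested. Quantile normalization moved the median difference of all probe sets to 0.01, from 0.03 as deposited. No paired analysis was possible because replicate numbers are 1 to 3 in Gb5ko and 4 to 6 in Gb5wt. With 3 arrays a group and no detection calls, dim probe sets cannot be told from background.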
